A study of Homo sapiens with 3 samples.

Results

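The YAP and TEAD factors and a set of their target genes were followed through DANCR knockdown in UM-UC-3 cells, an established human bladder cancer line. The 10 genes were the coactivators YAP1 and WWTR1, the DNA-binding factors TEAD1 and TEAD4, and the targets CCN1 (formerly CYR61), CCN2 (formerly CTGF), ANKRD1, AMOTL2, LATS2 and CRIM1. They were taken by name, through every probe set that the array annotation assigns to 1 of these genes alone, which gave 23 probe sets of 41097 single-gene probe sets in all. The names were chosen with earlier results of these data known. Counts of members set beside shares of all genes are therefore descriptions. The cells had received 1 of 2 siRNAs that target DANCR, a long noncoding RNA, called DANCR siRNA1 and DANCR siRNA2, or a negative control siRNA, all at 75 nM for 48 h with a lipid reagent. Each of the 3 groups is 1 Affymetrix array of total RNA, so no group has a replicate, no p-value can be given, and every difference below is a size on these arrays.

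YAP1 and WWTR1 (also called TAZ) are transcriptional coactivators that bind no DNA of their own. When the Hippo kinases STK3, STK4, LATS1 and LATS2 are inactive, both proteins enter the nucleus and join TEAD factors on DNA, where they raise the transcription of genes such as CCN1 and CCN2. Several targets, among them LATS2 and AMOTL2, act back on YAP1 as inhibitors. The pathway is controlled mainly through phosphorylation and localisation of the proteins, neither of which an expression array measures. It is known in epithelia, the urothelium included, for tying growth to cell contact and tension.

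The siRNAs are shown because the target genes differed between the 2 reagents aimed at the same RNA. The sequences are those in the labels, written 5′ to 3′, with the 3′ TT overhang in capitals.
DANCR siRNA1: gcguacuaacuuguagcaaTT
DANCR siRNA2: gagcuagagcagugacaauTT
control siRNA: uucuccgaacgugucacguTT

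The promoters are shown because TEAD factors recognise a short core, GGAATG, and the target members among them did not move alike. The core was searched on both strands of RefSeq promoter windows (build GRCh38.p14, from 250 bases before to 50 bases after the start site), and no 2 matches in the members' windows overlapped. Windows were at hand for 6 members, and TEAD1, TEAD4, CCN1 and CRIM1 had no entry. A match stood in 5 of the members' 8 windows, against 6 of 19 windows (31.6%) of the further YAP and TEAD targets and 14.0% of 35116 windows of this length. CCN2 had 3 matches, beginning 169, 104 and 95 bases before the start, and 3 or more were found in 0.128% of all windows. ANKRD1 had 2, at 220 and 128 bases before the start. AMOTL2 had 1 on the opposite strand, 69 bases before the start in 1 of its 2 windows, YAP1 had 1 at 162 bases before, and LATS2 had 1 beginning 9 bases after the start. Neither window of WWTR1 held these letters. Such a match is a description of the letters and not a measured binding site. Matches are in capitals in the windows of 4 targets, each written 5′ to 3′ in the direction of the gene.
CCN2, chr6:131951323-131951622, minus strand: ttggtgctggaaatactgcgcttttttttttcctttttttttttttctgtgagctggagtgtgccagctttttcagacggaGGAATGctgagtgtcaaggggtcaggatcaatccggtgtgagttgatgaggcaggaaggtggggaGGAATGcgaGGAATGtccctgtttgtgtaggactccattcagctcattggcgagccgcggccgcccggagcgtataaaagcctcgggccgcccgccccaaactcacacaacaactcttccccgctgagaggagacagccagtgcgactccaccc
ANKRD1, chr10:90921038-90921337, minus strand: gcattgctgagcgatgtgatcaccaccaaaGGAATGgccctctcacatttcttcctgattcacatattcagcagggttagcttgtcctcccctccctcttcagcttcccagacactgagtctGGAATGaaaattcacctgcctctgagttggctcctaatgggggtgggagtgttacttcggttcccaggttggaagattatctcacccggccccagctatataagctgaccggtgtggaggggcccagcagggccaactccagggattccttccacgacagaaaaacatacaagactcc
AMOTL2, chr3:134374398-134374697, minus strand: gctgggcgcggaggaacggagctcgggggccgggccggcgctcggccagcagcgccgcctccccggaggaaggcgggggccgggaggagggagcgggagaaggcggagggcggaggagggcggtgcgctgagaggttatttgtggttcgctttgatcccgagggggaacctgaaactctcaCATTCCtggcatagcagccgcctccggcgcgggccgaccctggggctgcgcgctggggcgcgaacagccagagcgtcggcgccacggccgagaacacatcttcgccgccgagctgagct
LATS2, chr13:21061537-21061836, minus strand: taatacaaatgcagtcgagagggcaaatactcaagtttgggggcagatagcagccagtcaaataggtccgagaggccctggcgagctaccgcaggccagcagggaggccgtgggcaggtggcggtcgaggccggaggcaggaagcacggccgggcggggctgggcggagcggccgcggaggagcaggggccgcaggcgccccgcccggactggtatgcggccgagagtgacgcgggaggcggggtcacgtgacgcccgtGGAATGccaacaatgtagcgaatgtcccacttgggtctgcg

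**Figure D1:**
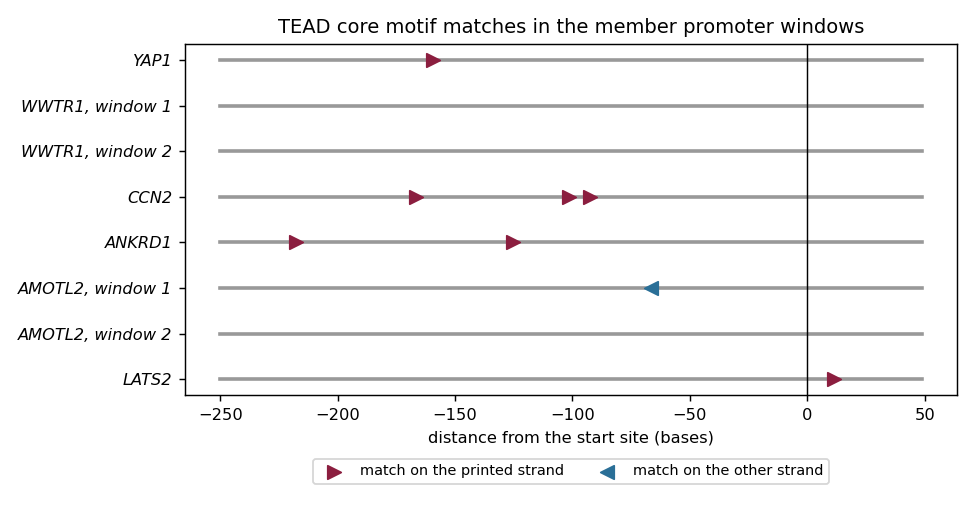
Positions of the TEAD core in the 8 RefSeq promoter windows of 6 members, as the distance in bases from the start site. Triangles mark matches and point along the strand that holds the core, and CCN2 has 3, ANKRD1 has 2, and YAP1, LATS2 and 1 AMOTL2 window have 1 each.

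Values are linear intensities, as the authors deposited them, on arrays with median intensities of 10.5 each. The median of all values, 10.5, served as a floor to which lower values were raised. A gene counted as measured when its brightest probe set exceeded the floor on at least 1 array, which held for 9 of the 10 members and for 12436 of 19775 genes. Of the members' 23 probe sets, 19 exceeded it. Ratios are log2 ratios to the control array unless another pair is named, and 2-fold is a log2 ratio of 1 or -1. DANCR had intensities of 116 with siRNA1, 126 with siRNA2 and 671 in the control, lower on both arrays labelled as knockdowns. The 3′/5′ ratio of ACTB, a measure of how complete the labelled RNA is, was 11.8 with siRNA1, 14.4 with siRNA2 and 11.9 in the control, and that of GAPDH was 1.29, 1.35 and 1.25. Of 9 urothelial markers looked up, 4 exceeded the floor, the highest at 35.2, and the uroplakins UPK1A, UPK2 and UPK3A and the keratins KRT5 and KRT20 did not. GATA3, a urothelial transcription factor, had the largest ratio of these, 0.80 with siRNA2, at 20.2 with siRNA1, 35.2 with siRNA2 and 20.2 in the control. The intensities of 11 endothelial, leukocyte, hepatic, erythroid and fibroblast markers summed to 129 with siRNA1, 139 with siRNA2 and 162 in the control. Of the 11, 6 exceeded the floor, and PTPRC, CDH5, ALB, DCN and LUM lay below it on every array. On both siRNA arrays all 6 were below the control, and TIE1, an endothelial receptor at 10.1 with siRNA1, 19.5 with siRNA2 and 30.9 in the control, was the 1 past 2-fold, at least 2.94-fold lower with siRNA1. The part of such RNA in the members' values was not tested. Probe sets of 1 gene read the same RNA on the same array, so their agreement speaks to the probes and not to the cells. For 2634 genes with 2 probe sets of mean intensity 50 or more, the brightest pair differed in log2 ratio by 0.14 (median) in the comparison of either siRNA to the control and by 0.13 between the siRNA arrays. In 1 gene of 10 the pair differed by more than 0.51 with siRNA1, 0.48 with siRNA2 and 0.51 between the siRNA arrays.

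CCN1, a secreted matricellular protein that binds integrins, stood farthest apart of all members. Its brighter probe set had an intensity of 341 with siRNA1, 1233 with siRNA2 and 477 in the control. The array with siRNA2 was thus the highest of the 3 and that with siRNA1 the lowest. The log2 ratio was -0.48 with siRNA1 and 1.37 with siRNA2, which is 1.4-fold lower and 2.59-fold higher than the control. Its second probe set kept the same order, at 90.3 with siRNA1, 317 with siRNA2 and 141 in the control, with ratios of -0.64 and 1.17. Less RNA per cell and fewer cells that express the gene cannot be told apart in such bulk RNA.

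CCN2, a close relative of CCN1 that is induced in fibrosis and wound repair, had the same order on its single probe set. Its intensity was 207 with siRNA1, 500.3 with siRNA2 and 248 in the control. With siRNA2 it was 2.02-fold higher than the control, just past 2-fold, and its log2 ratio of 1.01 became 0.93 after median-centring and 0.98 after quantile normalisation of the arrays. With siRNA1 its ratio was -0.26. That value and the -0.48 of the brighter CCN1 probe set lie within the range by which 9 of 10 pairs of probe sets of a gene differed. The -0.64 of the other CCN1 probe set with siRNA1 and the ratios of both genes with siRNA2 lie beyond it. The range comes from probes that read the same RNA, so it cannot say how far cultures or arrays differ. CCN1 and CCN2 were the 2 members at least 2-fold higher with siRNA2, where 2.15% of all measured genes were, and no member was at least 2-fold lower there, against 1.21%. With siRNA1 no member was 2-fold higher or lower, against 1.87% and 1.75% of genes. None was 2-fold apart in the same direction with both siRNAs, where 0.716% of genes were higher and 0.281% lower. Among the 5225 genes with a mean intensity of at least 100, where all measured members lie, 1.93% were 2-fold higher with siRNA2. Both genes were lower with siRNA1 and at least 2-fold higher with siRNA2, a combination found in 31 genes or 0.249% of those measured. The combination is the pattern of these 2 genes themselves, so its share is a description and no support. On the siRNA2 array the 3′/5′ ratios of ACTB (14.4) and GAPDH (1.35) were also at their highest, and the part of RNA quality in these differences was not tested.

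**Figure D2:**
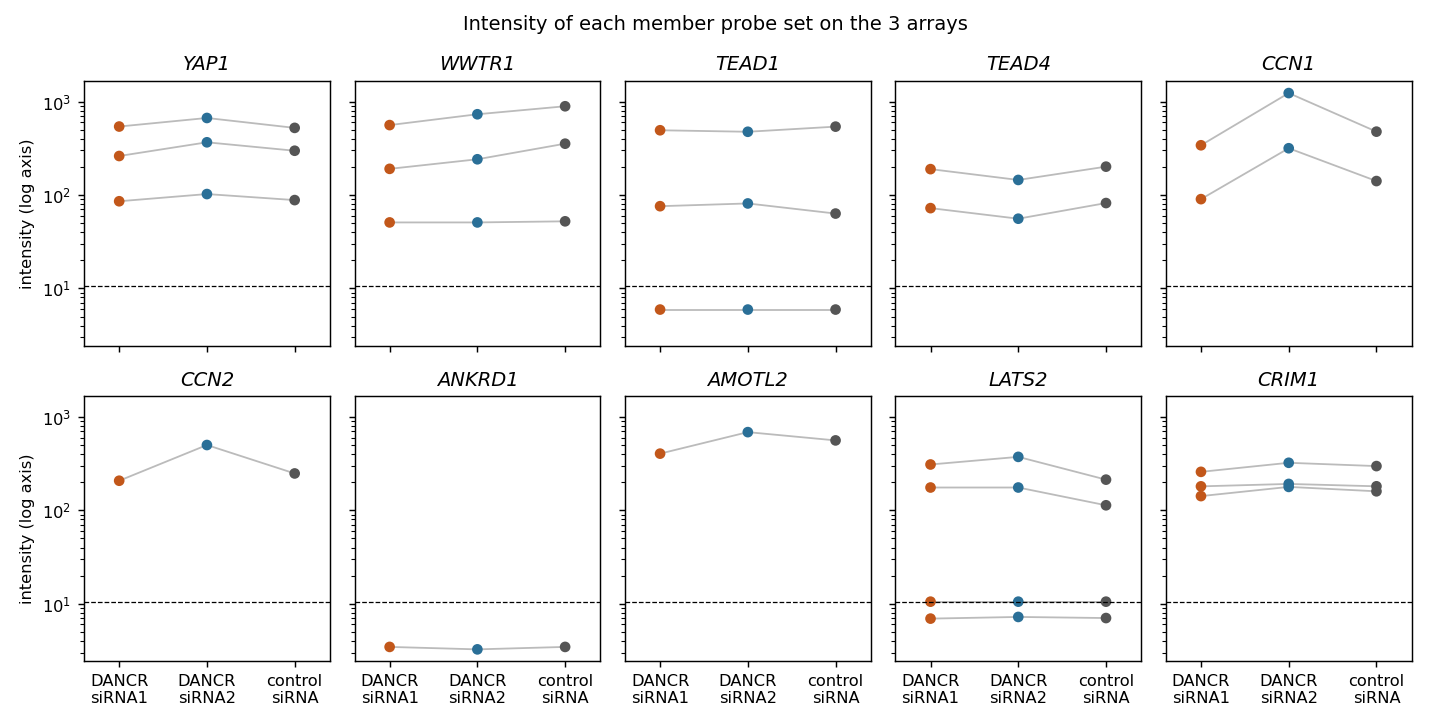
Intensity (log axis) of all 23 member probe sets on the arrays with DANCR siRNA1, DANCR siRNA2 and control siRNA. Each point is 1 array, lines join the values of 1 probe set, and the dashed line is the floor of 10.5. CCN1 reaches 1233 with siRNA2, and ANKRD1 lies under the floor on all 3 arrays.

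AMOTL2, an angiomotin family protein that binds YAP1 and holds it out of the nucleus, followed the same order with smaller differences. It was at 405 with siRNA1, 687 with siRNA2 and 560 in the control on its only probe set. The ratios were -0.47 and 0.29. CRIM1, a transmembrane protein with cysteine-rich repeats that binds BMPs, had its brightest probe set at 258 with siRNA1, 323 with siRNA2 and 298 in the control. Its 3 probe sets gave ratios between -0.20 and -0.00 with siRNA1 and between 0.08 and 0.16 with siRNA2, so all were ordered alike, though the spans are about the size by which probe sets of 1 gene commonly differ. Together 4 of 9 measured members, CCN1, CCN2, AMOTL2 and CRIM1, were lower with siRNA1 and higher with siRNA2, against 12.5% of measured genes. No member was higher with siRNA1 and lower with siRNA2, against 9.48%. Both shares are over all measured genes, with dim genes and genes at a ratio of exactly 0 included. The measured members hold no such genes, so the counts and shares are not like for like.

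LATS2, the kinase that phosphorylates and inhibits YAP1 and WWTR1, was higher with both siRNAs. Its brightest probe set had 310 with siRNA1, 374 with siRNA2 and 213 in the control, ratios of 0.54 and 0.81. The second had 175.5 with both siRNAs and 113 in the control, a ratio of 0.63 in each case. The equal value on both siRNA arrays is a repeat of the kind found in 22.7% of measured single-gene probe sets, and 2 of the members' 19 measured probe sets show it. The other LATS2 probe sets, at no more than 10.5, did not exceed the floor. ANKRD1, a nuclear ankyrin repeat protein of muscle and wounded tissue and a common reporter of YAP activity, had intensities of 3.45 with siRNA1, 3.25 with siRNA2 and 3.45 in the control. It was below the floor on each array, so nothing can be said of its direction, although its promoter window holds the TEAD core as that of CCN2 does.

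**Figure D3:**
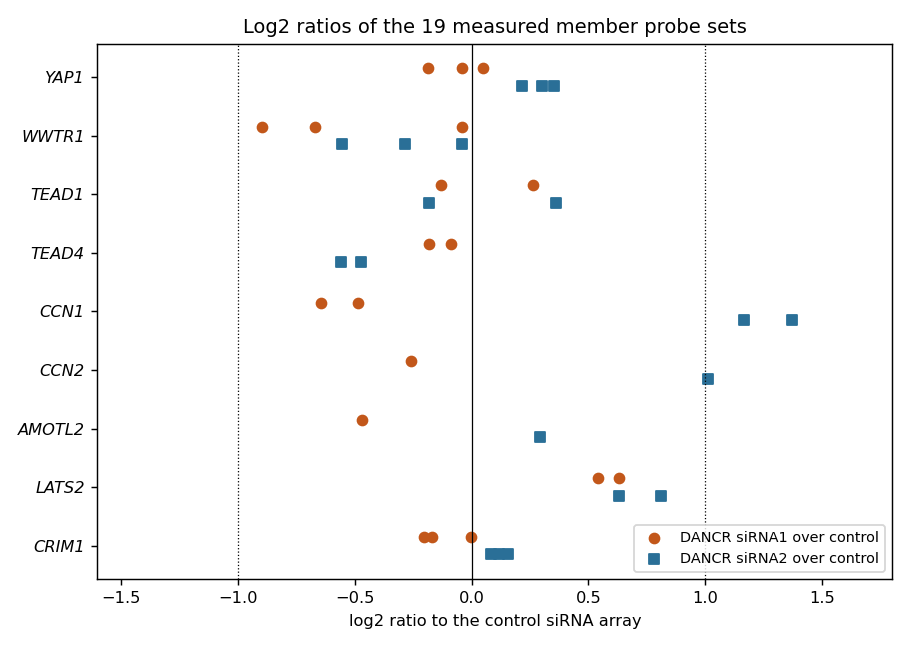
Log2 ratios to the control array of the 19 measured member probe sets, with DANCR siRNA1 as circles and DANCR siRNA2 as squares. Dotted lines mark 2-fold. CCN1 and CCN2 lie past 2-fold with siRNA2 and below 0 with siRNA1, LATS2 lies above 0 with both, and the TEAD1 probe sets fall on both sides of 0.

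Of the factors, WWTR1 showed the largest difference. Its brightest probe set was at 560 with siRNA1, 732 with siRNA2 and 891 in the control, and the next was at 191, 241 and 354. Both siRNA arrays lay under the control, siRNA1 the lower of them. The ratios of these probe sets were -0.67 and -0.89 with siRNA1 and -0.28 and -0.55 with siRNA2. The third, with 50.9 on both siRNA arrays and 52.3 in the control, gave -0.04 for each. YAP1, its paralogue, differed little. Its brightest probe set had 541 with siRNA1, 667 with siRNA2 and 523 in the control, and its 3 probe sets spanned -0.19 to 0.05 with siRNA1 and 0.21 to 0.35 with siRNA2. All 3 were thus highest with siRNA2, while siRNA1 and the control could not be ordered.

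TEAD4, a TEAD factor often abundant in carcinoma lines, was lower with siRNA2. Its brighter probe set was at 189 with siRNA1, 145 with siRNA2 and 201 in the control, and its ratios were -0.09 and -0.47. The second probe set gave -0.18 and -0.56, in the same order. TEAD1, the family member of widest expression, had no settled direction. Its brightest probe set, at 493 with siRNA1, 475 with siRNA2 and 539 in the control, gave -0.13 and -0.18, whereas the second, at 75.9, 81.2 and 63.3, gave 0.26 and 0.36. A further TEAD1 probe set lay under the floor. On the siRNA2 array, where CCN1 and CCN2 were highest, WWTR1 and TEAD4 were thus below the control on each of their probe sets. TEAD1 was below it on its brightest probe set alone, and YAP1 was above it on each of its probe sets.

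By brightest probe set, 7 of the 9 measured members were lower with siRNA1 than in the control, against 39.5% of measured genes, and 2 were higher, against 42.3%. With siRNA2, 6 members were higher, against 45% of measured genes, and 3 were lower, against 36.2%. Genes with a ratio of exactly 0 fall in neither share, here and in the other shares of any size. No measured member had such a ratio to the control. The members' median log2 ratio was -0.20 with siRNA1 and 0.29 with siRNA2, beside 0.00 over all measured genes in each case. The 5 measured targets had medians of -0.26 and 0.81, and the 4 factors -0.11 and -0.23. Members lower with both siRNAs were WWTR1, TEAD1 and TEAD4, 3 of 9 against 23.7% of genes. Those higher with both were YAP1 and LATS2, 2 of 9 against 29.2%. By the median over probe sets, TEAD1 was lower with neither siRNA and YAP1 was not higher with siRNA1. The 2 ratios of a gene share their control array, and they are given side by side and not as separate support for each other.

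**Figure D4:**
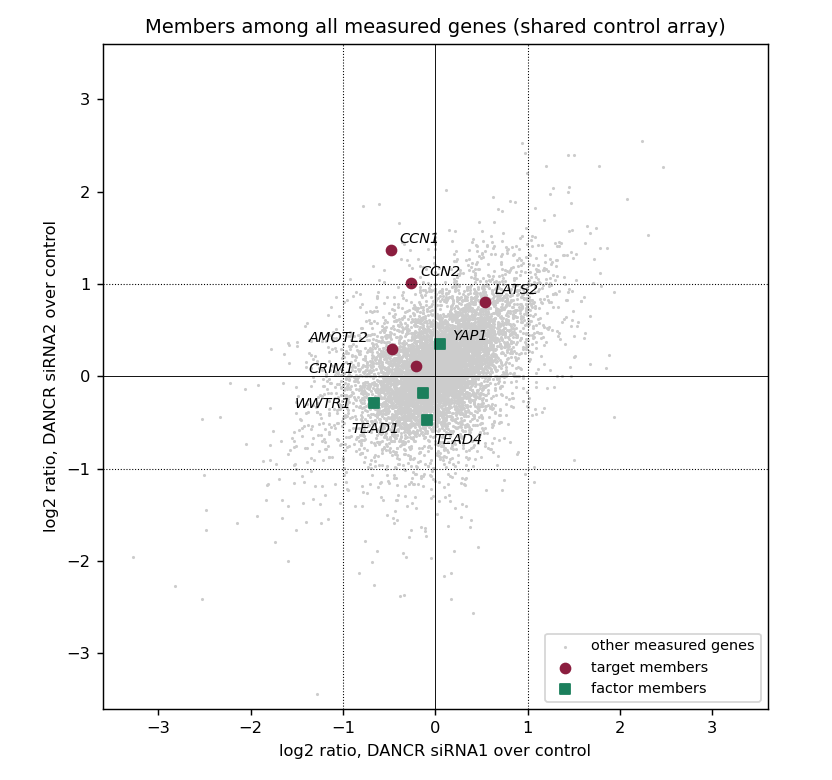
Log2 ratios with DANCR siRNA1 (horizontal axis) and DANCR siRNA2 (vertical axis) of all measured genes, with the 9 measured members named. Both axes share the control array. CCN1 and CCN2 sit above the 2-fold line for siRNA2 and left of 0 for siRNA1, while LATS2 is above 0 on both axes.

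The direct comparison of the siRNA arrays does not involve the control. On its brighter probe set CCN1 with siRNA1 was 3.62-fold below its level with siRNA2, and it was 3.50-fold lower on the other. Among 12436 measured genes 19 had a lower ratio. CCN2 was 2.41-fold lower with siRNA1, and 128 genes had a lower ratio. These were the 2 members at least 2-fold lower with siRNA1 than with siRNA2, against 2.4% of genes, and no member was 2-fold higher, against 1.51%. DANCR itself was 1.08-fold lower with siRNA1.

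The remaining members differed by less. With siRNA1, AMOTL2 was 1.70-fold lower than with siRNA2, and WWTR1 1.31-fold and YAP1 1.23-fold lower on their brightest probe sets. By brightest probe set, all 5 measured targets were lower with siRNA1 than with siRNA2, by log2 ratios from -1.86 to -0.27, where 41.8% of all genes were lower. TEAD4 ran the other way, with 0.38 on both of its probe sets, and TEAD1 was at 0.05 and -0.10. They were the 2 of 9 measured members higher with siRNA1 by their brightest probe sets, against 36.7% of genes.

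Other genes of the pathway gave a mixed picture. Of 16 further measured YAP and TEAD targets, 10 were lower and 3 higher with siRNA1, with a median of -0.20, where 39.5% of all measured genes were lower and 42.3% higher. With siRNA2, 8 were lower and 6 higher, with a median of -0.09, where 36.2% of all measured genes were lower and 45% higher. The targets NUAK2 and AREG were not analysed here. IGFBP3, which binds insulin-like growth factors, was at 134 with siRNA1, 405 with siRNA2 and 70.2 in the control, 5.77-fold higher with siRNA2 and with a ratio of 0.93 with siRNA1. Its other probe set gave 2.19 and 0.58. AXL, a receptor tyrosine kinase, was at 224, 934 and 1290, thus lowest with siRNA1 but highest in the control. Its second probe set, at 25.9, 41.3 and 43.9, kept that order with ratios of -0.76 and -0.09, short of 2-fold. ASAP1, an Arf GTPase-activating protein of the cell periphery, was also highest in the control, at 658 with siRNA1, 1140 with siRNA2 and 1554 in the control, and all 5 of its probe sets were lower with both siRNAs.

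FOXF2, a forkhead factor of mesenchyme, was at 195 with siRNA1, 91.2 with siRNA2 and 242 in the control, a ratio of -1.41 with siRNA2. THBS1, a matricellular protein, was at 29.1 with siRNA2 and below the floor on the other arrays, at least 2.76-fold higher than the control, although its other measured probe sets barely passed the floor. CCDC80, a matrix protein, was at 17.9 with siRNA1, 25.4 with siRNA2 and 11.9 in the control, with a ratio of 1.09 with siRNA2 and 0.46 on its second probe set. In all, 3 of the 16 were at least 2-fold higher and 1 lower with siRNA2, where 2.15% and 1.21% of all measured genes were. Of the 3, THBS1 counted as measured through the siRNA2 array alone and CCDC80 lay near the floor. Their part in this count is therefore no support for a rise of the targets. With siRNA1, 2 of the 16 were at least 2-fold lower, where 1.75% of genes were. A high value with siRNA2 was therefore found in some targets and a low one in others.

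No gene among 17 measured Hippo kinases and scaffolds was 2-fold from the control with either siRNA. Of all measured genes, 1.87% were 2-fold higher and 1.75% lower with siRNA1, and 2.15% and 1.21% with siRNA2. Of the 17, 11 were lower and 6 higher with siRNA1, where 39.5% and 42.3% of all measured genes were. With siRNA2, 8 were lower and 6 higher, where 36.2% and 45% were. LIMD1, an adaptor that restrains LATS kinases, had the largest ratio, -0.94 with siRNA2 and -0.06 with siRNA1, though its next probe set gave -0.14 and 0.00. STK3, the upstream kinase MST2, was at 136 with siRNA1, 144 with siRNA2 and 231 in the control, and PTPN14, a phosphatase that binds YAP1 and is itself a YAP target, was at 428, 768 and 715. STK3 and PTPN14 were chosen after their values were seen. In all, 3 of the 17, PTPN14 among them, were lower with siRNA1 and higher with siRNA2, where 12.5% of all measured genes were.

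The further TEAD factors and VGLL cofactors, which compete with or assist YAP1 on TEADs, had 4 of 6 genes measured. TEAD2 was at 30.5 with siRNA1, 61.5 with siRNA2 and 35.9 in the control, a ratio of 0.78 with siRNA2, but a second probe set had 17.9 on every array. With siRNA1, 2 of the 4 were higher and 2 lower, where 42.3% and 39.5% of all measured genes were. With siRNA2, 3 were higher and none lower, where 45% and 36.2% were, with a median of 0.47. TEAD3 and VGLL2, at no more than 12.9 and 10.6, lay near the floor and add little to these counts. None of the 4 was 2-fold from the control, beside the shares of all measured genes past 2-fold given for the Hippo list. Targets of SRF and MRTF, which also drive CCN1 and CCN2 in response to actin, had a median of 0.00 with each siRNA over 9 measured genes. None was past 2-fold, beside the same shares of all measured genes. The median is the ratio of TAGLN and CNN1, which had low and equal values on every array, 20.9 and 12.5. MYL9 exceeded the floor in the control alone, at 12.5. The median therefore says little of the brighter genes of the list. The part of SRF and MRTF in the CCN1 and CCN2 values was not tested. CALD1, an actin-binding protein, had the largest ratio of the list, -0.76 with siRNA1, and was at -0.46 with siRNA2. With siRNA2 the largest was 0.69, of FHL2, a LIM domain protein named after its values were seen. FLNA was not analysed here.

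**Figure D5:**
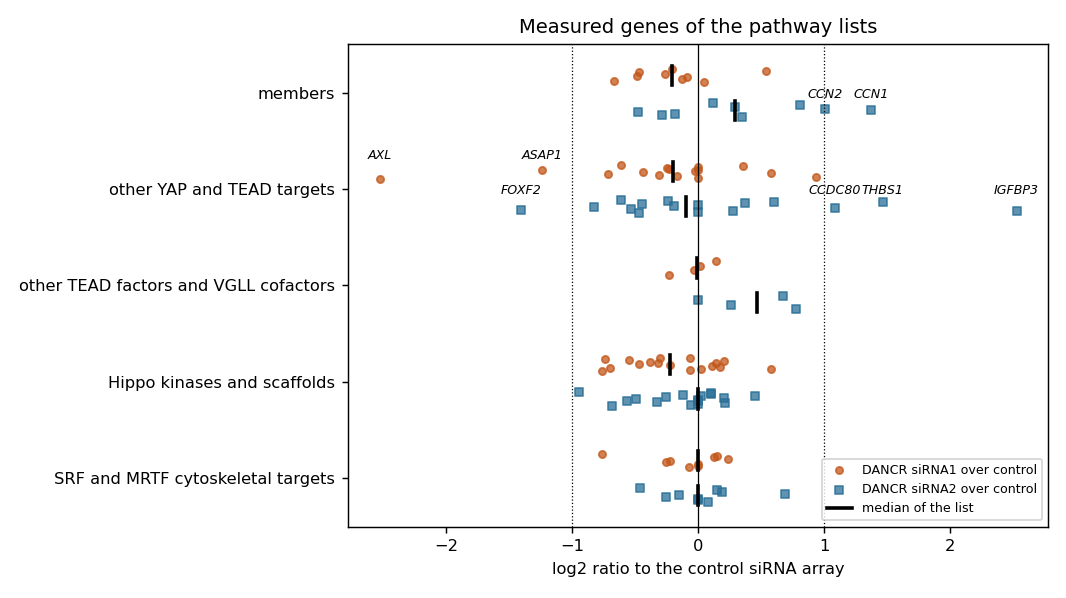
Log2 ratios to the control array of the measured members and of 4 further pathway lists, with DANCR siRNA1 as circles, DANCR siRNA2 as squares and list medians as black bars. Genes past 2-fold are named, and the targets lie on both sides of 0 with each siRNA.

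The genes whose ratios lay nearest to those of the 3 members farthest from 0 were found by Euclidean distance between pairs of log2 ratios. With only 3 arrays such likeness is a description of 2 numbers per gene. CCN1 had SIK1 (distance 0.15, with ratios of -0.36 and 1.46) and ARRDC4 (0.16, with -0.34 and 1.43) nearest. For CCN2 these were SLC5A3 (distance 0.00296) and SPEN-AS1 (0.0282), and for LATS2 they were DENND5A (0.00439) and BCL7A (0.0179).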

How the data were processed

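Expression was measured on 3 arrays, 1 each for DANCR siRNA1, DANCR siRNA2 and control siRNA. The deposited values are linear intensities per probe set, on a scale the authors had made common to the arrays, by a method not given in the sources used here. GCOS 1.4 is named per the submitters' processing notes. The value was equal on all 3 arrays (relative tolerance 1e-09) in 32.1% of probe sets, so many ratios are exactly 0.

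Probe sets were named with the supplied array annotation and current RefSeq symbols. Those naming several genes (1801) or none (11777) were left out. Values were floored at the 50th percentile, and a ratio with 1 side at the floor is a bound. The brightest probe set stood for a gene. Log2 ratios were called at 2-fold, with no test, since each group has 1 array, and the number of arrays limits the precision. Members and lists were chosen with earlier results of these data known. Named genes were all members, DANCR, list genes past 2-fold with either siRNA or else the largest ratio of a list, and the 2 genes nearest to each of the 3 farthest members. STK3, PTPN14 and FHL2 were added after their values were seen. Other floors, scalings, probe set choices and thresholds were tried. The code for the calling was tested on simulated data with planted changes above and below 2-fold and none at it. The noise was set and not taken from these arrays, so that test speaks to the code and not to the calls above. Python 3.11.15, numpy 2.4.6, pandas 2.3.3 and matplotlib 3.10.9 were used.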

Additional observations from a re-analysis of the deposited data

Results flagged for a closer look

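CCN1 and CCN2 had log2 ratios of opposite sign with the 2 siRNAs, below 0 with siRNA1 and at least 1 with siRNA2, on every measured probe set of each (1 for CCN2). The values with siRNA1 were small, -0.48 and -0.64 for CCN1 and -0.26 for CCN2. The log2 ratio of siRNA1 over siRNA2 was -1.86 for CCN1 and -1.27 for CCN2. With 1 array per siRNA the difference was not tested.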

How the results depend on the processing

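With 1 array per group no replicate could be left out, and signal over the floor limits what ANKRD1 can show. No paired analysis was possible because each group has 1 array. Of 57 counts and medians under alternatives, 52 stayed close to the values above, meaning within 1.5 times for a count. Part of that agreement was bound to occur, so the number is no measure of support. Other floors, or none, left every count and median unchanged, because the measured members are bright. Counts of 0 that stayed 0 are also among the 52. So is a fall from 3 to 2 members lower with both siRNAs, by the median over probe sets. The members 2-fold apart with siRNA2 numbered 1 in place of 2 after median-centring or quantile normalisation, where CCN2 dropped out, and 0 at a 3-fold threshold. At 3-fold, 1 member was left between siRNA1 and siRNA2. At 1.5-fold, 1 member was apart with siRNA1. Median-centring moved the median of all genes with siRNA2 by -0.08. Over the median of its probe sets TEAD1 had 0.07 with siRNA1 and 0.09 with siRNA2, against -0.13 and -0.18, and 0.05 turned to -0.02 between the siRNAs. YAP1 likewise had -0.04 with siRNA1, against 0.05. LATS2 had -0.14 between the siRNAs by that median, against -0.27. No other member changed sign under the 7 alternatives to floor, scaling and probe set. CRIM1 has no value without _s_at and _x_at probe sets.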
